A study of Mus musculus with 69 samples.

Results

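The comparison described here asked what a hormonal challenge added to endothelial cells (EC) that were already under metabolic stress. It was made up of the 20 EC libraries labelled ALL or HG + FFA, chosen by cell type and treatment label and paired by set number, out of 69 libraries in the series. A set is a group of parallel cultures from the same animal, so each of the 10 sets (numbers 9 to 18) gave 1 ALL and 1 HG + FFA library. The 10 sets came from 9 animals, because sets 17 and 18 were taken from the same mouse. Bulk poly(A) RNA was sequenced after 24 h of exposure.

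HG + FFA cultures received 20 mM glucose and free fatty acids, given as 100 µM in the labels and as 100 µM each of oleate and palmitate in the study's methods. ALL cultures received the same metabolic stressors plus 30 nM angiotensin II and 300 nM of a catecholamine, which the labels name epinephrine and the group name AII + NA and the study's methods name norepinephrine. All EC were labelled wild-type and came from hearts of male C57BL/6 mice, from which CD31-positive cells had been selected with magnetic beads after removal of CD45-positive cells. Sets 15 and 16 came from animals whose aortic vascular smooth muscle cells (VSMC) were used as EGFR knock-out (KO) cells, in which Cre under the SM22 promoter removes the floxed Egfr gene in smooth muscle. Sets 9 and 10 shared their animals with wild-type (WT) VSMC sets 1 and 2. The further EC groups of the series, AII + NA without metabolic stress and Control, had 9 libraries each. All EC libraries carried another batch label than all VSMC libraries, so cell type and batch cannot be told apart.

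Angiotensin II acts mainly through the AT1 receptor (Agtr1a and Agtr1b in mice), which couples to Gq, calcium release and ERK and can transactivate the EGF receptor. The AT2 receptor (Agtr2) opposes many of these effects. Catecholamines act through alpha-1 receptors (calcium), alpha-2 receptors (inhibition of adenylate cyclase) and beta receptors (cAMP and CREB). In vessels these hormones are best known for smooth muscle contraction, while endothelium answers with nitric oxide, prostacyclin, endothelin and adhesion molecules.

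Totals per library ranged from 17166133 to 39755642 counted reads, with a median of 24355492 for HG + FFA and 23372410.5 for ALL, and ALL was the deeper library in 6 of 10 sets. Levels are given as FPM (fragments scaled to library size) after normalisation for library composition. Such levels are not corrected for transcript length and are compared here only within a gene or list. Between lists, levels were first divided by exonic length and are then given as FPM per kb.

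The EC label was first set against cell type markers. RNA of 12 endothelial markers summed to 372 to 6993 FPM in HG + FFA (median 2533) and 425 to 6821 in ALL (median 2363). Pecam1, which encodes the CD31 used for selection, ranged from 16.3 to 1491 FPM in HG + FFA and from 17.8 to 1408 in ALL. Cdh5, the endothelial cadherin, ranged from 9.40 to 1202 FPM in HG + FFA. Sets 9, 11 and 13 lay at the bottom, with Pecam1 at 27.5, 44.0 and 16.3 FPM in HG + FFA, whereas the other 7 sets were at 236 or above.

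RNA of other cell types was present in every set. The 8 fibroblast markers summed to 850 to 10260 FPM in HG + FFA and 1069 to 11623 in ALL, and 10 smooth muscle and pericyte markers to 378 to 4644 and 380 to 4669. Col1a1, a fibroblast collagen, ranged from 11.7 to 5368 FPM and Acta2, smooth muscle actin, from 163 to 3589 FPM in HG + FFA, whereas Myh11, the myosin of contractile smooth muscle, did not exceed 7.89 FPM. The 8 leukocyte markers summed to 13.6 to 133 FPM over both groups, Ptprc (CD45) stayed at or below 1.02 FPM, and the cardiomyocyte myosin Myh6 was at 0 in all 20 libraries, although Tnnt2 reached 288 FPM. Fewer cells of a type and less RNA per cell cannot be told apart in such libraries. The marker sums of the 2 libraries of a set were then compared. The log2 ratio of ALL to HG + FFA ran from -0.35 to 0.20 for the endothelial sum, from -0.50 to 0.42 for the mural sum and from -0.14 to 0.46 for the fibroblast sum. It ran from -1.02 to 0.49 for the cardiomyocyte sum, from -0.71 to 0.23 for the lymphatic sum, from -0.10 to 0.46 for the leukocyte sum and from -0.36 to 0.35 for the mesothelial sum. The highest fibroblast, mural, leukocyte and cardiomyocyte ratios were all those of set 12. The endothelial, mural and fibroblast sums were higher in ALL in 6, 4 and 5 of 10 sets, and none of the tested markers passed the test between ALL and HG + FFA. Per kb of exonic sequence, the mean level of the fibroblast markers was above that of the endothelial markers in both libraries of 6 sets. In sets 9, 11 and 13 it was 66.5, 156 and 146 FPM per kb in HG + FFA, against 4.79, 5.48 and 4.17 for the endothelial markers. In sets 16 and 17 it was 59.9 and 82.2, against 19.4 and 13.8, and in set 10 it was 50.2 against 44.1. In sets 12, 14, 15 and 18 the endothelial mean was the higher one in both libraries. The counts for ALL against HG + FFA, and for its difference from WT VSMC, are therefore given with and without sets 9, 11 and 13. They are also given without all 6 sets in which the fibroblast mean was higher, and without 5 of them. The 5 follow from sums not divided by length, used at first, which did not place set 10 with the others in both libraries. For AII + NA against Control, and for the hormone effect with minus without metabolic stress, counts are given over all sets only.

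**Figure D1:**
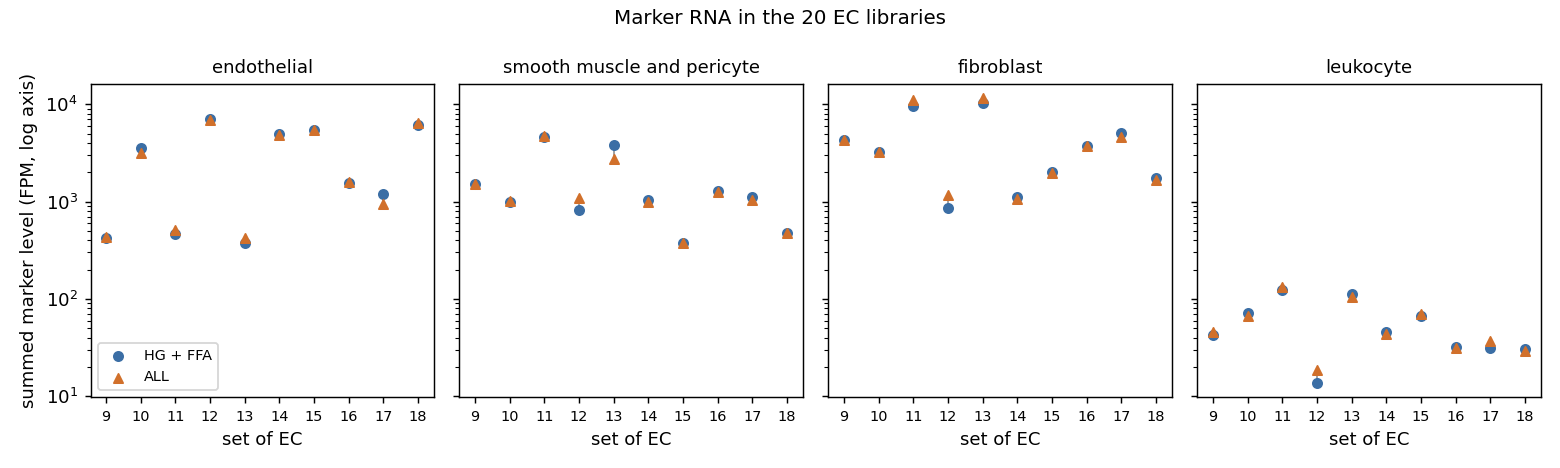
Summed level of 4 marker lists (FPM, log axis) in each of the 10 EC sets, with circles for HG + FFA and triangles for ALL. Endothelial RNA differed more than 10-fold between sets, lowest in sets 9, 11 and 13, and by a log2 ratio of at most 0.35 in size between the 2 libraries of a set.

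The receptors for the added hormones were then examined. Agtr1a (chromosome 13, 30518942 to 30566850, GRCm39), the main AT1 receptor of the mouse, ranged from 0 to 3.28 FPM in HG + FFA (median 0.0394) and from 0 to 4.98 in ALL (median 0.143). It had no read in 7 of 20 libraries, and a count of 0 allows up to 0.0738 to 0.186 FPM depending on the depth (3 counts, counting error only). Levels of 1 FPM or more occurred in sets 9, 10 and 13, the same sets in both groups, so the groups overlapped throughout. Agtr1b did not exceed 0.495 FPM and Agtr2 0.0619 FPM, with 2 reads of Agtr2 in 2 of 20 libraries. In WT VSMC, on a scale normalised over both cell types, Agtr1a was at 8.33, 14.6, 6.61 and 18.8 FPM in the 4 HG + FFA libraries, above the 3.20 FPM of the highest EC library of that group.

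Of the adrenergic receptors, Adra1d, which couples to Gq, ranged from 0.395 to 27.2 FPM in HG + FFA (median 9.32) and from 0.0646 to 28.0 in ALL (median 8.88). Adra1b ranged from 0.733 to 7.15 FPM (median 3.47) and from 0.253 to 10.0 (median 2.73). Both of these receptors had reads in all 20 libraries and the groups overlapped throughout. Adra1a, Adra2b and Adra2c stayed at or below 0.355 FPM, Adra2a had medians of 0.263 and 0.288 FPM, Adrb1 of 0.438 and 0.590, and Adrb3 of 0.962 and 0.976. Of the 12 receptors described, the 7 that passed the filter on low counts had log2 fold changes (log2FC) of ALL against HG + FFA from -0.30 (Mas1, a receptor for angiotensin fragments) to 0.66 (Agtr1a), with 95% intervals that all included 0.

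Egfr (chromosome 11, 16702198 to 16868158), the receptor through which angiotensin II can act by transactivation, ranged from 3.17 to 148 FPM in HG + FFA (median 44.6) and from 3.07 to 164 in ALL (median 40.3). It was lowest in set 16, at 3.17 and 3.07 FPM, and was also low in set 15 (12.8 and 8.49) and set 18 (12.1 and 10.8). It was highest in sets 9, 11 and 13. Egfr was lower in ALL in 8 of 10 sets, with a log2FC of -0.13 ± 0.09 (SE) and a 95% interval from -0.33 to 0.06, so the difference did not exceed the spread between sets.

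**Figure D2:**
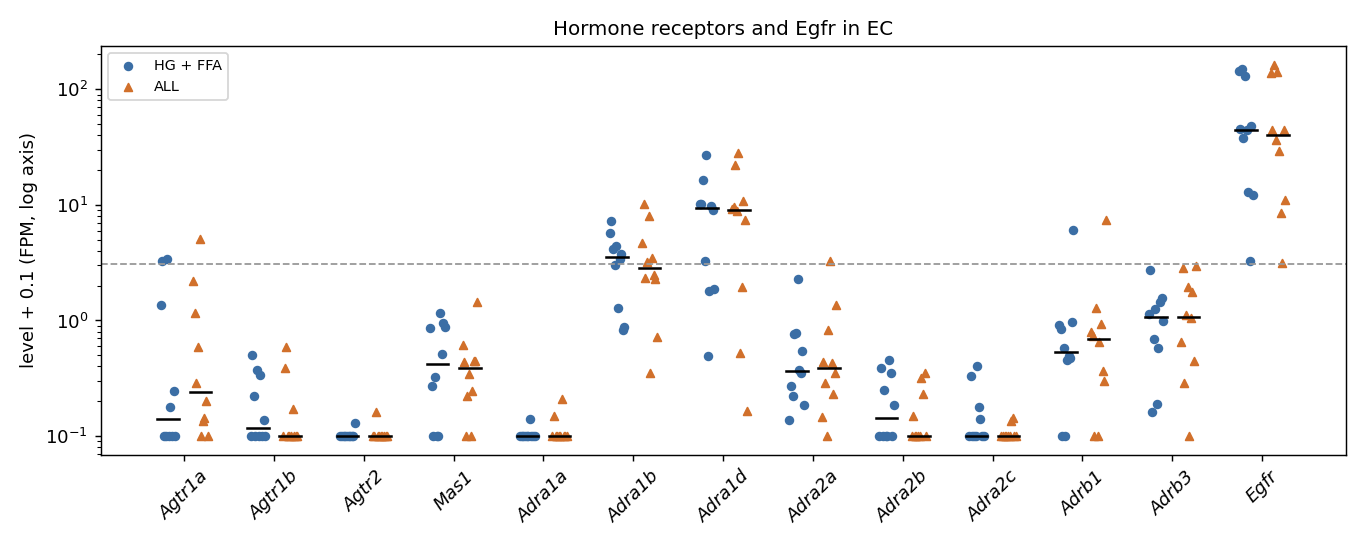
Levels of 12 hormone receptors and Egfr in the 10 EC sets (FPM with 0.1 added, log axis), circles for HG + FFA, triangles for ALL, black bars for medians; the dashed line marks 3 FPM. Agtr1a reached 3 FPM in sets 10 and 13 alone, and the groups overlapped for every gene.

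Across all genes, ALL was compared with HG + FFA by edgeR with the set as a block, over all 38 EC libraries. A differentially expressed gene (DEG) had to pass a false discovery rate (FDR) of 0.05 in edgeR and in DESeq2, change by a log2FC of 0.64 or more, reach 3 FPM in either group and be protein-coding or a lncRNA. No gene was a DEG over the 10 sets. In edgeR 0 of 17148 tested genes (0%) passed the FDR, and the smallest adjusted p was 0.964. At an unadjusted p under 0.05 there were 394 genes higher (2.3%) and 487 lower (2.84%) in ALL, beside 857 of 17148 expected at that p where nothing differs. DESeq2 gave 106 genes at an adjusted p under 0.05. Of these, 103 had less than 1 FPM in both groups, and the remaining 3 were Zbed5 and the processed pseudogenes Gm10359 and Gm2574, with log2FC of 0.42, 0.22 and 0.29, below the fold threshold. Without sets 9, 11 and 13, chosen after the data were seen, the number of DEG was again 0, with 463 higher and 689 lower genes at an unadjusted p under 0.05 and a smallest adjusted p of 0.742. Without sets 9, 11, 13, 16 and 17, also chosen afterwards, it was 0, with 1040 higher and 1415 lower genes at an unadjusted p under 0.05 and a smallest adjusted p of 0.145. It was also 0 without sets 15 and 16. The numbers at an unadjusted p under 0.05 depended on single sets, with 252 higher and 264 lower without set 12, 290 and 206 without set 14 and 306 and 308 without set 15. Without the replicate block they were 41 and 49.

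Without the 6 sets in which fibroblast marker RNA was the higher per kb, the result was another one. This alternative, also chosen after the data were seen, kept sets 12, 14, 15 and 18, and edgeR passed 11 of 18044 genes (0.061%), all lower in ALL, of which 5 were DEG. Malat1 (chromosome 19, 5845717 to 5853602), a nuclear lncRNA, was at 755, 740, 1064 and 2242 FPM in HG + FFA and at 298, 255, 527 and 1142 in ALL in these sets, with a log2FC of -1.20 ± 0.19 (edgeR adjusted p = 0.0409). Over all 10 sets its log2FC was -0.53 ± 0.19 (edgeR adjusted p = 0.964), and it was higher in ALL in 3 of the other 6 sets. The other DEG of this fit were Smg1, the kinase of nonsense-mediated decay (log2FC -0.75), Syne2, a giant protein of the nuclear envelope (-0.65), Zbed6, a repressor derived from a transposon (-0.91, with 38% of its exonic bases overlapping another gene), and the lncRNA gene Gm57395 (-1.97). The remaining 6 were Insr, the insulin receptor, with Tnrc6b, Tmem245, Nav1, Herc2 and Gm38372. The 11 genes had a median exonic length of 19057 bases, beside 5243 for all genes tested. In sets 12, 14, 15 and 18 the log2 ratio of ALL to HG + FFA correlated with exonic length across protein-coding genes with a Spearman rho of -0.40, -0.40, -0.47 and 0.00, and the part of length in these calls was not tested. Genes with any read numbered 22428, 21280, 23898 and 24198 in HG + FFA in these sets. In ALL they numbered 20651, 17421, 23244 and 17693, fewer in each set. Of the other sets, 10 and 13 had more such genes in ALL. The part of this difference in the calls was not tested. The calls also depended on single sets, with 1 gene at the FDR without set 12, 0 without set 14, 0 without set 15 and 972 without set 18 (461 higher and 511 lower). None of the 11 genes was a receptor described above or a member of the gene lists below.

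The precision behind the result over all sets was measured gene by gene. Among genes of these types that reached 3 FPM, 11749 in number, the median SE of the log2FC was 0.09. The middle 90% of their log2FC lay between -0.20 and 0.16, with a median of -0.01. For 11168 of them (95.1%) the whole 95% interval lay within the fold threshold of 0.64 in either direction, and for 11672 (99.3%) within a log2FC of 1 in either direction. Only 9 genes had a log2FC beyond 0.64, from -0.80 to 0.91, and none of these passed the FDR. For the other 581 genes the interval reached the threshold, so a change of that size was not excluded. All of these intervals are for the mean change over all sets and do not bound the change within a part of them. Smg1, Syne2 and Zbed6 had log2FC of -0.27 ± 0.11, -0.23 ± 0.13 and -0.32 ± 0.14 (SE) over all sets. In sets 12, 14, 15 and 18, where endothelial marker RNA was the higher per kb, they had -0.75, -0.65 and -0.91. They are named here because they were DEG in that fit.

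The genes with the smallest p are described for their values. Zbed5 passed the FDR in DESeq2, but in edgeR none of them passed it after the filter on low counts. Without that filter 7 of these 16 genes passed it in edgeR, with adjusted p of 0.0158 for Tnfrsf14, 0.0447 for H1f2, 0.00659 for H2bc6, 0.00237 for Zbed5, 0.00958 for Hmgn2-ps, 0.00397 for Rpl35rt and 0.000277 for Gapdhrt. None of these was a DEG. Tnfrsf14 (chromosome 4, 155005126 to 155013020), the receptor HVEM of the TNF receptor family, ranged from 4.33 to 12.3 FPM in HG + FFA (median 6.48) and from 1.24 to 11.3 in ALL (median 3.84). It was lower in ALL in 10 of 10 sets, although the groups overlapped, and its log2FC was -0.70 ± 0.19 (edgeR adjusted p = 0.964). Ddx17, an RNA helicase, ranged from 603 to 901 FPM (median 672) and from 441 to 850 (median 562), again lower in 10 of 10 sets, with a log2FC of -0.21 ± 0.06. Sgcd, delta-sarcoglycan of the dystrophin complex, had medians of 7.75 and 5.49 FPM and a log2FC of -0.49 ± 0.14. The remaining 5 leading lower genes, Otud7b, Khdc4, Ptprd, Fam13b and Nsd2, had log2FC between -0.27 and -0.20 and were lower in 8 or 9 of 10 sets.

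On the higher side, the histone gene H2bc6 (chromosome 13, 23766595 to 23805139) ranged from 3.41 to 13.8 FPM in HG + FFA (median 5.75) and from 5.23 to 14.1 in ALL (median 10.3). It was higher in ALL in 10 of 10 sets, with overlapping groups and a log2FC of 0.62 ± 0.21. The linker histone gene H1f2 had medians of 142 and 176 FPM and a log2FC of 0.28 ± 0.09. Zbed5, a gene derived from a transposon, ranged from 16.8 to 42.95 FPM (median 23.7) and from 23.5 to 47.2 (median 32.2), with a log2FC of 0.42 ± 0.11. Fth1, the ferritin heavy chain, had medians of 2073 and 2176 FPM and a log2FC of 0.23 ± 0.07, but 41.5% of its exonic bases overlap another gene and it has processed copies. Hmgn2-ps, Rpl35rt and Gapdhrt are near-copies of other genes, so their reads are uncertain, and Dap had a log2FC of 0.23 ± 0.07.

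**Figure D3:**
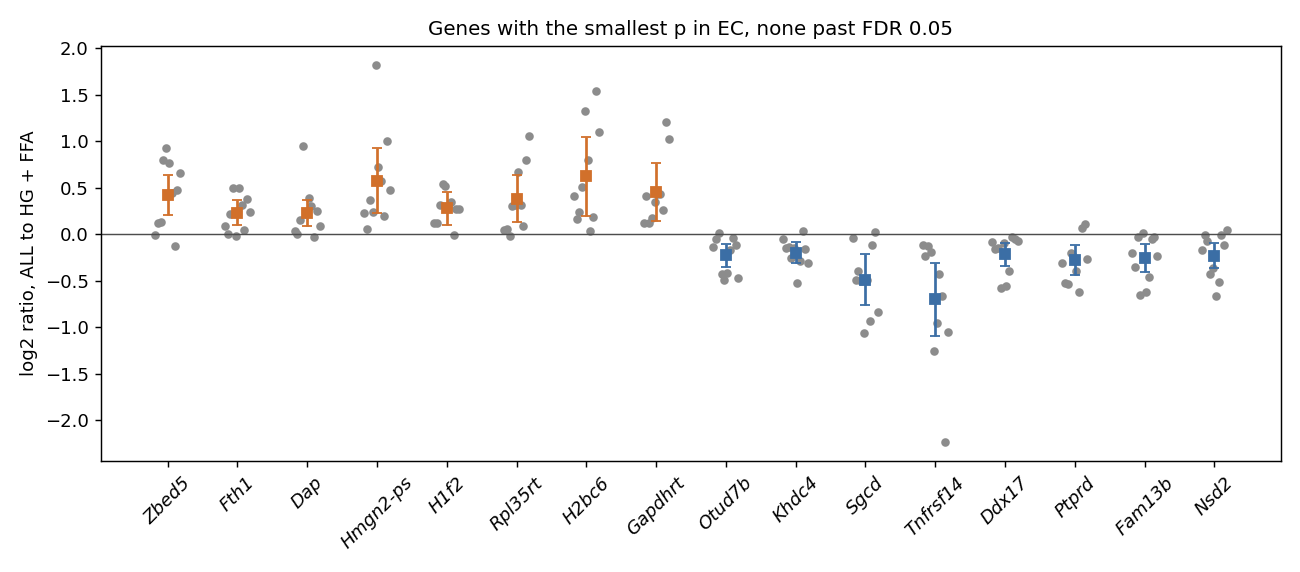
log2 ratio of ALL to HG + FFA for the 8 higher and 8 lower genes with the smallest p that pointed the same way in at least 8 of 10 sets. Grey points are the 10 EC sets (0.1 FPM added) and squares the fitted log2FC with its 95% interval. No gene passed the FDR in edgeR after the filter on low counts, and Zbed5 passed it in DESeq2.

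To see whether known targets of the hormones moved below the threshold, 20 gene lists of 359 different genes were followed, of which 336 were tested. None of the 336 passed the FDR in edgeR. At an unadjusted p under 0.05 there were 5 higher and 5 lower genes (2.98% in total), beside 5.14% of all genes tested. Of the 305 tested list genes with at least 3 FPM, 291 had a 95% interval within the fold threshold. The median log2FC of the lists lay between -0.13 and 0.08, and that of all tested genes was -0.01.

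Targets of the second messengers came first. Of 16 cAMP and CREB targets 15 were tested, 0 passed, and the median log2FC was 0.00. Nr4a1, a nuclear receptor induced within minutes of a cAMP or calcium signal, ranged from 3.84 to 43.5 FPM in HG + FFA (median 13.9) and from 3.84 to 50.2 in ALL (median 12.1), with a log2FC of -0.06 ± 0.10. Sik1, a CREB-induced kinase, had medians of 20.8 and 21.7 FPM and a log2FC of 0.00 ± 0.09. Among 17 genes of calcium and NFAT signalling 0 passed, and Rcan1, the calcineurin inhibitor that NFAT induces, had medians of 29.1 and 30.6 FPM and a log2FC of 0.06 ± 0.07 (95% interval -0.09 to 0.21). Among 22 immediate early and SRF target genes 0 passed, with a median log2FC of 0.08. Fos ranged from 1.58 to 26.1 and from 2.04 to 31.9 FPM, and the SRF and YAP target Ccn2 had medians of 1914 and 1756 FPM with a log2FC of -0.12 ± 0.10. These cultures were harvested after 24 h, and earlier times were not analysed here.

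Further down the signal, 12 ERK feedback genes had a median log2FC of -0.03. Phlda1 was the only one with an unadjusted p under 0.05 (log2FC 0.19, higher in 6 of 10 sets), while the phosphatase gene Dusp1 had medians of 57.4 and 52.5 FPM and a log2FC of -0.03 ± 0.10. The EGFR family and its ligands had a median of -0.13, the lowest of the lists, over 13 tested genes of 16. Its member with the smallest p was Nrg1, the ligand neuregulin 1, with medians of 252 and 183 FPM, lower in 8 of 10 sets and a log2FC of -0.23 ± 0.09 (edgeR adjusted p = 0.964). Hbegf, the ligand shed in EGFR transactivation, had medians of 44.5 and 39.8 FPM and a log2FC of -0.15 ± 0.10. Among 15 genes of G proteins and their regulators 0 passed, and Plcb1, the phospholipase downstream of Gq, had a log2FC of -0.26 ± 0.11.

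Genes of endothelial function came next. Of 28 vasoactive mediators 24 were tested, 0 had even an unadjusted p under 0.05, and the median log2FC was 0.00. Edn1, the precursor of endothelin-1, ranged from 12.5 to 641 FPM in HG + FFA (median 156) and from 16.5 to 662 in ALL (median 143), with a log2FC of 0.03 ± 0.09. Ptgis, the prostacyclin synthase, had medians of 277 and 311 FPM, was higher in 8 of 10 sets and had a log2FC of 0.13 ± 0.08. Nos3, the endothelial nitric oxide synthase, had medians of only 1.07 and 1.03 FPM and an interval from -0.69 to 0.69, which includes changes of the threshold size. In leukocyte adhesion and inflammation 19 of 23 genes were tested and 0 had an unadjusted p under 0.05. Vcam1 and Icam1, adhesion molecules for leukocytes, had log2FC of -0.08 ± 0.10 and -0.07 ± 0.09. Of 13 tested genes of coagulation and fibrinolysis 0 passed the FDR, and the median log2FC was -0.01. The only one with an unadjusted p under 0.05 was Plau, the urokinase that activates plasminogen, with a log2FC of -0.22 ± 0.09.

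Of 18 tested genes of oxidative stress 3 had an unadjusted p under 0.05, all higher, beside 394 of all 17148 genes in that direction and at that p (2.3%), among them Sod2 (log2FC 0.14) and Gpx1 (0.33, with 85.3% of its exonic bases overlapping another gene). Nox4, the constitutively active NADPH oxidase, had a log2FC of -0.08 ± 0.09. The TGF-beta and matrix list had a median of -0.01 over 22 genes with 0 calls, Fn1 (fibronectin) having a log2FC of -0.20 ± 0.11. Among 23 proliferation genes only Birc5, a survival factor of dividing cells, had an unadjusted p under 0.05 (log2FC 0.42, higher in 7 of 10 sets), and Mki67 had medians of 19.9 and 15.6 FPM.

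**Figure D4:**
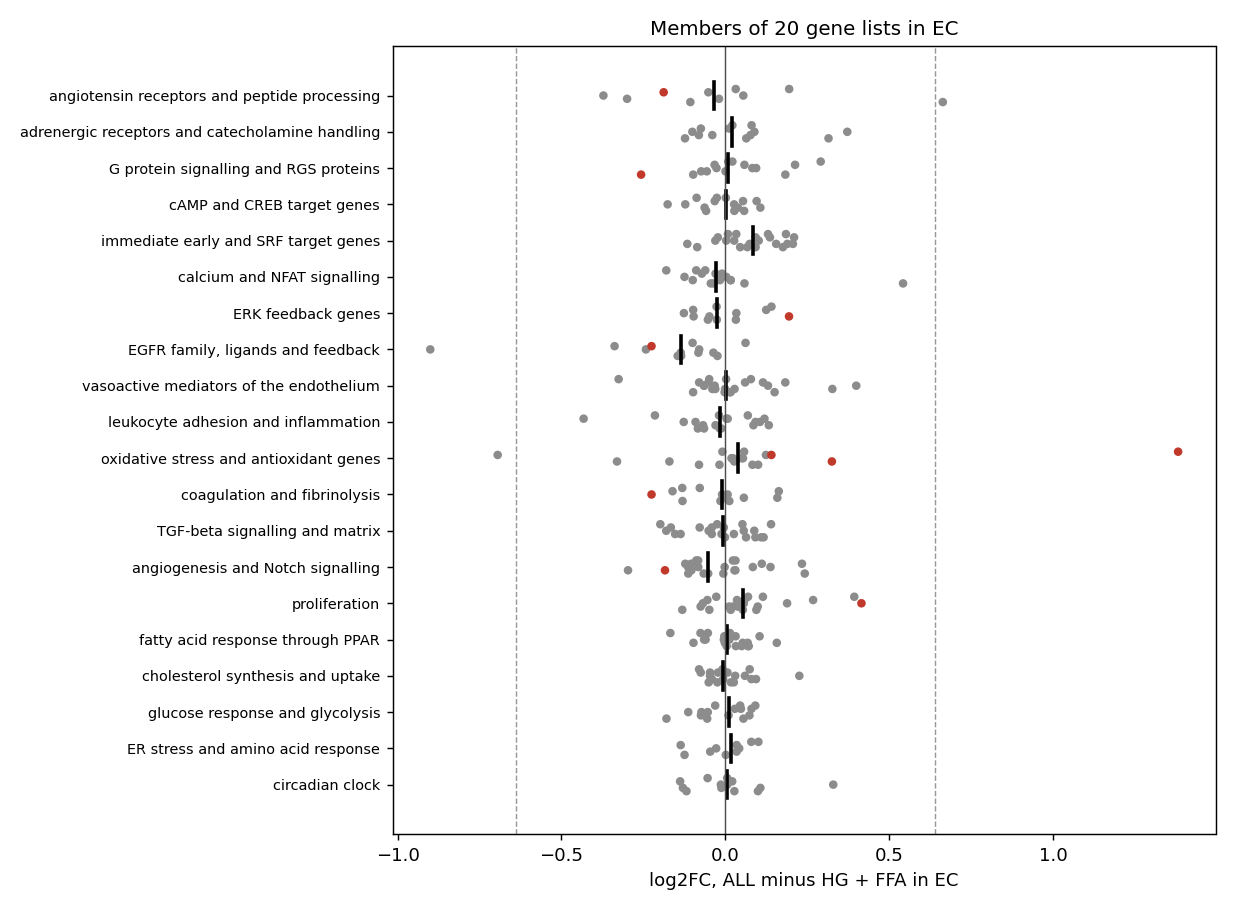
log2FC of ALL against HG + FFA in EC for every tested member of 20 gene lists. Points are genes, red where the unadjusted p is under 0.05, black bars are list medians (-0.13 to 0.08), and dashed lines mark the fold threshold of 0.64; most members lie close to 0.

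The metabolic part of the treatment was the same in both groups, and its target genes served as a check of the cultures. HG + FFA against Control called 282 genes higher (1.64%) and 323 lower (1.88%) at an FDR of 0.05 in edgeR, and 43 higher and 68 lower DEG. Of 23 tested genes of the fatty acid response through PPAR, the lipid-sensing nuclear receptors, 14 rose in HG + FFA and 0 fell, with a median log2FC of 0.52. ALL against HG + FFA, which shares the HG + FFA libraries with that comparison, called 0 of the same 23, with a median of 0.00. Angptl4 (chromosome 17, 33992724 to 34000804), a PPAR target that inhibits lipoprotein lipase, rose by 3.22 ± 0.28 in HG + FFA against Control. It then ranged from 108.7 to 796 FPM in HG + FFA (median 200) and from 110 to 1037 in ALL (median 228), higher in ALL in 5 of 10 sets, with a log2FC of 0.00 and an interval from -0.54 to 0.55. Pdk4, the kinase that shuts pyruvate out of oxidation, rose by 1.20 ± 0.12 against Control and had a log2FC of -0.10 ± 0.12 for ALL against HG + FFA. For Cpt1a, the gate of mitochondrial fatty acid import, the values were 0.80 ± 0.07 and -0.06 ± 0.07. The lists for cholesterol synthesis, the glucose response, ER stress and the circadian clock had 0 calls for ALL against HG + FFA and medians between -0.01 and 0.02. Txnip, the glucose-induced inhibitor of thioredoxin, had medians of 541 and 510 FPM.

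The same hormones without metabolic stress gave the matching comparison, AII + NA against Control in 9 libraries each. In edgeR 0 of 17148 genes passed the FDR (smallest adjusted p 0.719), with 471 higher (2.75%) and 672 lower (3.92%) at an unadjusted p under 0.05. DESeq2 called 75, all of them under 3 FPM. The difference between the hormone effect with and without metabolic stress, tested as an interaction, called 0 genes in edgeR (smallest adjusted p 0.540), with 1444 genes (8.42%) at an unadjusted p under 0.05 and 74 called by DESeq2, 69 of them under 3 FPM. For Tnfrsf14 the log2FC was -0.70 ± 0.19 with and 0.13 ± 0.21 without metabolic stress (interaction adjusted p 0.540). Without a filter on low counts, edgeR gave 44 and 78 genes for these comparisons.

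The agreement of the sets was described next, across genes, which are not independent replicates. Over 12291 genes with at least 3 FPM, the log2 ratio of ALL to HG + FFA in one set correlated with that in another with a mean Pearson r of 0.04 over 45 pairs of sets. The pairs ranged from -0.33 (sets 10 and 16) to 0.40 (sets 12 and 15), and 27 of 45 were above 0. Sets 17 and 18, from the same mouse, had r = 0.24. For HG + FFA against Control, over the same genes and 36 pairs of sets, the mean was 0.15, from -0.11 to 0.51, and 32 of 36 were above 0.

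In WT VSMC from the aorta the same addition of hormones to metabolic stress called 7 of 16905 genes in edgeR at an FDR of 0.05 (0.0414%), of which 5 were DEG, over 4 sets. KO VSMC gave 0 of 17538 (0%) over 3 sets, with 510 genes at an unadjusted p under 0.05 and 45 called by DESeq2, all under 3 FPM. In WT VSMC there were 1829 genes at that p in edgeR, and DESeq2 called 449, 246 of them under 3 FPM. The receptor genes themselves were among the WT DEG. Agtr1b was at 1.63, 4.63, 2.63 and 3.87 FPM in the HG + FFA libraries of sets 1 to 4 and at 3.35, 11.8, 4.73 and 15.7 in ALL. It rose in all 4 sets, with a log2FC of 1.35 ± 0.20 (edgeR adjusted p = 0.0297). Agtr2 fell, with a log2FC of -1.73 ± 0.26, and Bmp3 (0.72), Dmpk (0.65) and Atp10a (1.15) rose. In EC, Bmp3 had a log2FC of -0.07, Dmpk of 0.08 and Atp10a of -0.28, none of them called, and Agtr1b and Agtr2 were below the filter. The number of WT DEG was 9, 0, 0 and 1 when sets 1 to 4 were left out in turn, and 0 without the replicate block.

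The difference between the EC and the WT VSMC response was tested in a single model over both cell types. It called 26 of 19362 genes (0.134%) at an FDR of 0.05. EC sets 9 and 10 share their animals with WT VSMC sets 1 and 2, and the model treated them as separate sets. For 25 genes the log2FC was lower in EC than in WT VSMC, and for 1 gene, Bmper, it was higher. Values within each cell type come from the libraries on which the 26 genes were called, so their directions there follow in part from the call and are a description. In EC the 26 genes had log2FC between -0.47 and 0.19 (median -0.12), 24 of them below 0, and 25 of 26 had an interval within the fold threshold. In WT VSMC their median was 0.82, and 25 of 26 were higher in ALL in all 4 sets, although only Atp10a passed the FDR within WT VSMC alone. The call rested on few WT VSMC sets. Without WT VSMC set 4 the count was 0, without set 2 it was 3, without set 1 it was 38 and without set 3 it was 37. Leaving out a single EC set gave 11 to 25 genes, lowest without set 15 and without set 18, leaving out EC sets 9, 11 and 13 gave 6, leaving out sets 9, 11, 13, 16 and 17 gave 8, of which 5 were among the 26, and leaving out set 10 as well gave 2, Hip1 and Atp10a. Other EC sets whose removal moved the count by over 1.5 times were 10 (17), 14 (15) and 17 (13). Without the replicate block it was 0. All 26 genes kept their direction in each of these fits.

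Atp10a (chromosome 7, 58305914 to 58479478), a phospholipid flippase, was at 12.1, 25.9, 31.4 and 19.8 FPM in the WT VSMC HG + FFA libraries and at 25.3, 52.4, 51.7 and 71.0 in ALL. In EC, on the same scale, it ranged from 13.5 to 60.5 FPM (median 27.1) in HG + FFA and from 6.38 to 59.3 (median 26.6) in ALL. The WT VSMC value was higher under ALL in every set, whereas EC overlapped, and the difference was -1.41 ± 0.23 (edgeR adjusted p = 0.00533). Itga8, the integrin alpha 8 subunit of mural cells, was at 19.0, 39.6, 26.5 and 33.6 FPM and at 42.9, 93.0, 38.6 and 173 in WT VSMC, where set 4 stood highest in ALL, and its difference was -1.52 ± 0.29. Myh10, a non-muscle myosin heavy chain, was at 231, 353, 357 and 319 FPM and at 392.2, 575, 562 and 917, with a difference of -0.996 ± 0.17. Bmper, a modulator of BMP signals, was at 19.1, 32.3, 41.5 and 84.9 FPM and at 13.5, 9.34, 29.4 and 36.8 in WT VSMC, lower under ALL in every set, and its difference was 1.18 ± 0.23.

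**Figure D5:**
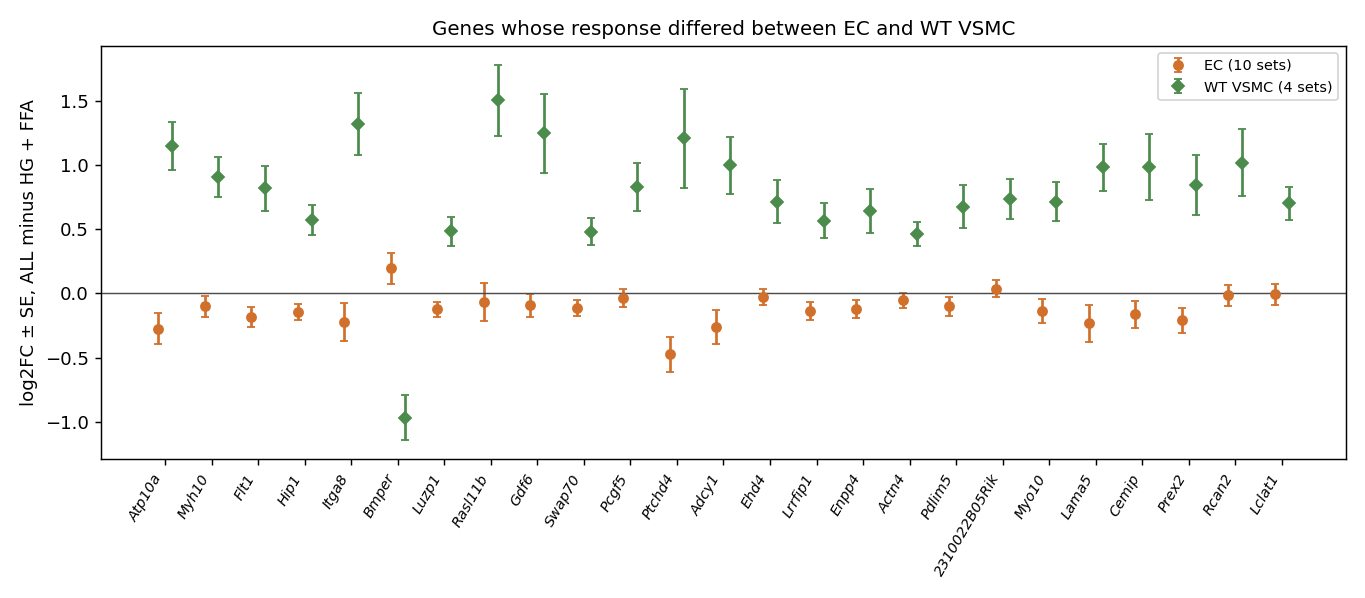
log2FC ± SE of ALL against HG + FFA in EC (circles, 10 sets) and WT VSMC (diamonds, 4 sets) for 25 of the 26 genes whose response differed at an FDR of 0.05. EC values lie between -0.47 and 0.19, while 24 of the WT VSMC values are above 0.

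Flt1 (chromosome 5, 147498414 to 147662826), the VEGF receptor 1, is best known from endothelium. On the scale shared with VSMC it ranged from 4.03 to 155 FPM in EC under HG + FFA (median 49.9) and from 4.13 to 113 under ALL (median 43.4), with a log2FC of -0.18 ± 0.08. In WT VSMC it was at 41.5, 26.4, 15.3 and 19.3 FPM in HG + FFA and at 60.8, 48.1, 19.7 and 54.7 in ALL, and the difference was -0.99 ± 0.17 (edgeR adjusted p = 0.00644). The promoters of the 26 genes were searched on both strands for the cAMP response element TGACGTCA, for its core TGACG, which the full element contains, and for the CArG box of serum response factor. RefSeq promoters of the GRCm38.p6 build, 300 bases each, were found for 23 of the 26 genes, 32 promoters in all. The full element was found in 1 of these 32 promoters (3.12%) and in 1.79% of all 32851 promoters. The core was found in 11 of 32 (34.4%), beside 20.8% of all, and the CArG box in 1 of 32 (3.12%), beside 1.63%. The promoters that held a full element or a CArG box are shown because they bear on the cAMP and serum response targets above, with the match in capitals. That of Flt1, with the full element 81 bases before the start site, matches GRCm39 once, at chr5:147662772-147663071 on the minus strand. That of Lclat1, an acyltransferase of cardiolipin remodelling, has the CArG box 116 bases before the start site and matches at chr17:73414730-73415029 on the plus strand.
Flt1: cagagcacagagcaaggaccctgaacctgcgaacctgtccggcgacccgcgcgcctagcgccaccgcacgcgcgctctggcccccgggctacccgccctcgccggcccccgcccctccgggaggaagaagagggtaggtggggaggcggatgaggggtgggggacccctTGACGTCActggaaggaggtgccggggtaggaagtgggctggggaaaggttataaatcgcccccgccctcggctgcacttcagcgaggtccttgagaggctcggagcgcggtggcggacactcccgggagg
Lclat1: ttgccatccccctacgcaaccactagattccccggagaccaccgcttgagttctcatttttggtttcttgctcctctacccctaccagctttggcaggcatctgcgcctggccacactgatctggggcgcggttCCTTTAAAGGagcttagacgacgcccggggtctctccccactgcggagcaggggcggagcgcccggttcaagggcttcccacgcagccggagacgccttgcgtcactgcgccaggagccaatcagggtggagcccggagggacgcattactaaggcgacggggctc
A match of letters is a description of the window and no evidence of binding.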

How the data were processed

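The authors sequenced poly(A) RNA as paired reads of 150 bases, aligned them with HISAT2 2.1.0 to mm39 and counted reads per Ensembl gene with featureCounts, reads mapping to several places included. The deposited values used here are raw counts per gene and library (56953 rows, of which 56310 were found in the annotation used; the others held 0.0242% of EC counts). Whether counting used strand is not given in the sources used here, so overlapping genes are uncertain. No column of another sample was present (0).

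Counts were normalised with TMM in edgeR 4.0.16 (R 4.3.3) after its filter on low counts, and 17148 genes were tested with the quasi-likelihood test over all EC libraries with the set as a block, with Benjamini-Hochberg adjustment. DESeq2 1.42.0 was run beside it. DEG passed an FDR of 0.05 with each of these tools, reached 0.64 on the log2 scale and 3 FPM, and were protein-coding or lncRNA genes. Single log2 ratios had 0.1 FPM added. Intervals are 95% intervals from the moderated dispersion. The EC and WT VSMC responses were compared in a joint fit of 19362 genes.

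Libraries of the same set deviated together (lowest r 0.819 over 12327 genes, other sets on average -0.09), and the numbers mark cultures of the same animal. Between sets 17 and 18, from the same mouse, r was 0.17, below the highest value between sets (0.564). These 2 sets also differed in marker RNA, and the parts of set and animal in the shared deviation were not tested. Within HG + FFA and within ALL no library was a duplicate: the smallest chi-square per gene between 2 libraries of a group was 50.5. Libraries of different groups were not compared in this way. Sets 17 and 18 share a mouse, so p-values treat 9 animals as 10 sets. EC Control of set 10, EC AII + NA of set 15 and KO VSMC ALL of set 5 were not analysed here.

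Named genes were the DEG, the 8 higher and 8 lower genes with the smallest p that pointed the same way in at least 8 of 10 sets, the receptors, the first and up to 3 leading members of each list, and genes passing in the VSMC comparisons. Further well-known list members were named after their values were seen. The comparison, the lists and the tests were chosen with earlier results of these data known. The scripts were tested on simulated data. Alternatives covered scaling, filters, the block, DESeq2 and leaving out sets. Results for 4 genes are not reported here.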

Additional observations from a re-analysis of the deposited data

Results flagged for a closer look

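The response to ALL against HG + FFA differed between EC and WT VSMC, by the test of the difference itself (edgeR, FDR under 0.05), for 26 genes. The differences in log2FC, EC minus WT VSMC, are given for 25 of them and were -1.41 for Atp10a, -0.996 for Myh10, -0.99 for Flt1, -0.70 for Hip1, -1.52 for Itga8, 1.18 for Bmper, -0.60 for Luzp1, -1.57 for Rasl11b and -1.33 for Gdf6. They were -0.58 for Swap70, -0.86 for Pcgf5, -1.68 for Ptchd4, -1.24 for Adcy1, -0.73 for Ehd4, -0.69 for Lrrfip1, -0.75 for Enpp4 and -0.50 for Actn4. They were also -0.76 for Pdlim5, -0.69 for 2310022B05Rik, -0.84 for Myo10, -1.20 for Lama5, -1.14 for Cemip, -1.05 for Prex2, -1.02 for Rcan2 and -0.70 for Lclat1. The count was 0 without WT VSMC set 4. Cell type, organ and batch label differ together between these groups and cannot be told apart. In KO VSMC the median log2FC of the 26 genes was 0.03, and its difference from WT VSMC was not tested.

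In 10 of 122 named genes a single EC set stood apart from the other 9 in its log2 ratio of ALL to HG + FFA, where chance gives about 1 in 20. Set 12 stood apart for Dap (0.95), Thbd (-0.47), Dmpk (0.90) and Lrrfip1 (-0.46). From HG + FFA to ALL in set 12 the fibroblast marker sum went from 850 to 1166 FPM and the mural sum from 811 to 1088 FPM. The leukocyte sum went from 13.6 to 18.8 FPM and the cardiomyocyte sum from 7.19 to 10.1 FPM. These were the highest ratios of the 10 sets for each of these lists, and their part in the outlying values was not tested. Set 18 stood apart for Adra1d (-3.51) and Myo10 (0.21), set 17 for Grk5 (0.21), set 11 for Per2 (0.89), set 15 for Spred2 (-0.56) and set 14 for Lclat1 (-0.68). No library stood apart in its total count.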

How the results depend on the processing

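The number of EC DEG for ALL against HG + FFA was 0 in the main analysis, with or without the replicate block, and 0 without any single set. It was 5 without sets 9, 10, 11, 13, 16 and 17, and was not counted when 1 more set was left out of that fit. In each of the other alternatives run it was 0. Without the filter on low counts edgeR passed 126 genes at the FDR alone, none a DEG, and with only the 20 libraries the smallest adjusted p was 0.452. For AII + NA against Control the count at the FDR was 44 without the filter and 75 in DESeq2, and for the interaction 78 and 74, against 0 in the main analysis. WT VSMC DEG numbered 0 without the replicate block, 0 to 9 with 1 set left out and 64 in DESeq2 alone. They were 5 in the main analysis, and KO VSMC DEG were 0 in all runs. The 26 genes differing between EC and WT VSMC became 155 without the filter, 150 in DESeq2, 0 without the replicate block, 6 without EC sets 9, 11 and 13, 8 without EC sets 9, 11, 13, 16 and 17, and 2 when set 10 was left out too. With 1 EC set left out there were 11 to 25, and with 1 WT VSMC set left out 0 to 38. The cause of these shifts was not tested. Leaving out the replicate block changed no call in EC ALL against HG + FFA, AII + NA against Control, the interaction or KO VSMC, and it was not tried for HG + FFA against Control. Of 2743 alternative values for the log2FC of 125 named genes in EC, 2590 lay within 1 SE of the main value, 145 moved further and 8 passed the FDR, 7 of them without the filter and Zbed5 in DESeq2. Among all of them 85 changed sign. The mean correlation between sets was 0.04 for genes of at least 30 FPM, where the pairs ranged from -0.53 to 0.65 with 23 of 45 above 0, and 0.05 with 1 FPM added. Agtr1a and Nos3, both with medians below 3 FPM, had intervals that reached beyond the fold threshold, so a change of that size was not excluded.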

Other observations

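Gene types outside the lists did not lie evenly around 0 in ALL against HG + FFA in EC. In edgeR no gene passed the FDR over the 10 sets. DESeq2 calls included the processed pseudogenes Gm10359 and Gm2574, with log2FC of 0.22 and 0.29. Of 1208 tested processed pseudogenes, 212 were higher and 7 lower at an unadjusted p under 0.05 in edgeR (18.1%), with a median log2FC of 0.17. Of 13626 protein-coding genes 168 were higher and 350 lower (median -0.01), and of 1662 lncRNA genes 6 were higher and 88 lower (median -0.14). The median log2 ratio of the pseudogenes was above 0 in 9 of 10 sets, from -0.15 to 0.62, and highest in set 17. Without sets 17 and 18, an alternative chosen after seeing the data, 81 were higher and 16 lower, with a median of 0.10, and without sets 9, 11 and 13 the numbers were 243 and 4. Without the replicate block they were 27 and 5. Without the filter on low counts, 5033 processed pseudogenes were tested, of which 284 were higher and 38 lower, with a median of 0.00. Processed pseudogenes are near-copies of spliced transcripts, and reads mapping to several places were counted. Across 11408 protein-coding genes, which are not independent replicates, the log2FC and the exonic length had a Spearman rho of -0.37. In single sets rho ran from -0.47 to 0.22 and was -0.15 or lower in 5 of 10.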
